A study of Mus musculus with 6 samples.

Results

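The genes described here encode the transcriptional coactivators YAP and TAZ, one of their DNA-binding partners of the TEAD family, and 7 genes widely used as readouts or feedback parts of that pathway. They were read in cultures of 4T1, a mouse mammary carcinoma line that stands in for triple-negative breast cancer in laboratory work. The 10 members (Yap1, Wwtr1, Tead1, Ccn1, Ccn2, Ankrd1, Amotl2, Ajuba, Lats2 and Axl) were taken by name from 28418 genes in the deposited tables, through the GENCODE M21 symbols, and all 10 were found. The study compared cells exposed for 35 passages to 100 nM PFOS (perfluorooctane sulfonate, a long-lived industrial surfactant with a fluorinated chain) with cells carried for 35 passages at 0 nM PFOS, with 3 libraries of poly(A) RNA in each group. No genotype or other agent is named for either group, and the labels describe the cells as epithelial. Whether libraries of one group stem from different cultures is not stated, and the p-values below therefore reflect the scatter of these libraries alone, which may be technical.

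YAP (gene Yap1) and TAZ (gene Wwtr1) carry no DNA-binding domain and act by joining TEAD factors on DNA. The Hippo kinases hold them back: the MST kinases activate LATS1 and LATS2, which phosphorylate YAP and TAZ and keep them in the cytoplasm. When tension, low cell density or loss of Hippo signalling lets them enter the nucleus, they raise transcription of Ccn1, Ccn2 and Ankrd1, and also of their own inhibitors Lats2 and Amotl2. YAP and TAZ activity is set mainly by phosphorylation and location, which transcript levels of Yap1 and Wwtr1 do not show.

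The promoters are shown because TEAD factors recognise the core GGAATG (the heart of the M-CAT element), and these target genes are described below by how their transcripts stood at 100 nM. RefSeq windows of 300 bases (250 before to 50 after the start, GRCm38.p6) were found for 8 members, Yap1, Wwtr1, Ccn1, Ankrd1, Amotl2, Ajuba, Lats2 and Axl. GGAATG or its reverse complement CATTCC was in at least 1 window of 8 of these 8 genes, against 16.6% of the 27025 genes with a window. Ankrd1 and Ajuba held it at 2 places each, where 1.36% of all 32851 windows held 2 or more. In the windows of Ccn1, Ankrd1, Amotl2, Ajuba and Lats2 below, written 5′ to 3′ on the gene's strand, the capitals mark that word.
Ccn1: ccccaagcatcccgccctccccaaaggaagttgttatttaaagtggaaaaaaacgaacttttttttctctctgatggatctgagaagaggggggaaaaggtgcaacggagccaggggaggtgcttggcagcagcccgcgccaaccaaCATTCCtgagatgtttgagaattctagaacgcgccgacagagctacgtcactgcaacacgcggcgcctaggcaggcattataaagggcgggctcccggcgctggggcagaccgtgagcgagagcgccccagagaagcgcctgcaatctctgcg
Ankrd1: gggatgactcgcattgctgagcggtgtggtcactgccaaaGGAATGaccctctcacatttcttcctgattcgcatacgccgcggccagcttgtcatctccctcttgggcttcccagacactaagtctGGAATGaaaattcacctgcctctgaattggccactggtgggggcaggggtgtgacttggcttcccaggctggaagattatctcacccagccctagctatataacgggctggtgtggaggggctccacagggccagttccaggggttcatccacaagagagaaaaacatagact
Amotl2: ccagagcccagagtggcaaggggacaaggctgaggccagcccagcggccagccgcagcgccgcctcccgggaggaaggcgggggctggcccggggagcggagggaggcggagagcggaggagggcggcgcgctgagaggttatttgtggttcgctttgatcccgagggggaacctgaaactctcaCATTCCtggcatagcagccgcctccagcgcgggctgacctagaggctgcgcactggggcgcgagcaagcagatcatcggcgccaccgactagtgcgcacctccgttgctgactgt
Ajuba: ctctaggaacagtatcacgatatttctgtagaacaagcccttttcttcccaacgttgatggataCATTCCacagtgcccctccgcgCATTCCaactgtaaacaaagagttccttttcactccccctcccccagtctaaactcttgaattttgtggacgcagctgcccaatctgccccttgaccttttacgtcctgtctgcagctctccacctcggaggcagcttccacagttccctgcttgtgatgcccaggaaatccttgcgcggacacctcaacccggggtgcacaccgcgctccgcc
Lats2: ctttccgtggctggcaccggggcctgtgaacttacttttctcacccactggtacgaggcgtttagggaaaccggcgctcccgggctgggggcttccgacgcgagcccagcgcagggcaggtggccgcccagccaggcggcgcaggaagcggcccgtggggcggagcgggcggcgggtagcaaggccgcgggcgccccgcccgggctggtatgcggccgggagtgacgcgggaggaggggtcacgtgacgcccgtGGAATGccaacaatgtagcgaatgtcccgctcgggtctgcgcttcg
These lie at chr3:145649936-145650235 (minus strand) for Ccn1, chr19:36119795-36120094 (minus strand) for Ankrd1, chr9:102717554-102717853 (plus strand) for Amotl2, chr14:54577612-54577911 (minus strand) for Ajuba and chr14:57746074-57746373 (minus strand) for Lats2. In Ccn1 the word began 103 bases before the start, and in Amotl2 65 bases before it. Ankrd1 had it 210 and 123 bases upstream, and Ajuba 186 and 164 bases upstream. Lats2 had it at base 5 after the start of its first window, and its second window, of another start, held none. The AP-1 word TGANTCA was in the window of 0 of the 8 genes and in that of 8.97% of all genes. A match is a description of the letters and does not show that a factor binds there. The members were chosen as genes of this pathway, and their share was not tested against that of all genes.

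**Figure D1:**
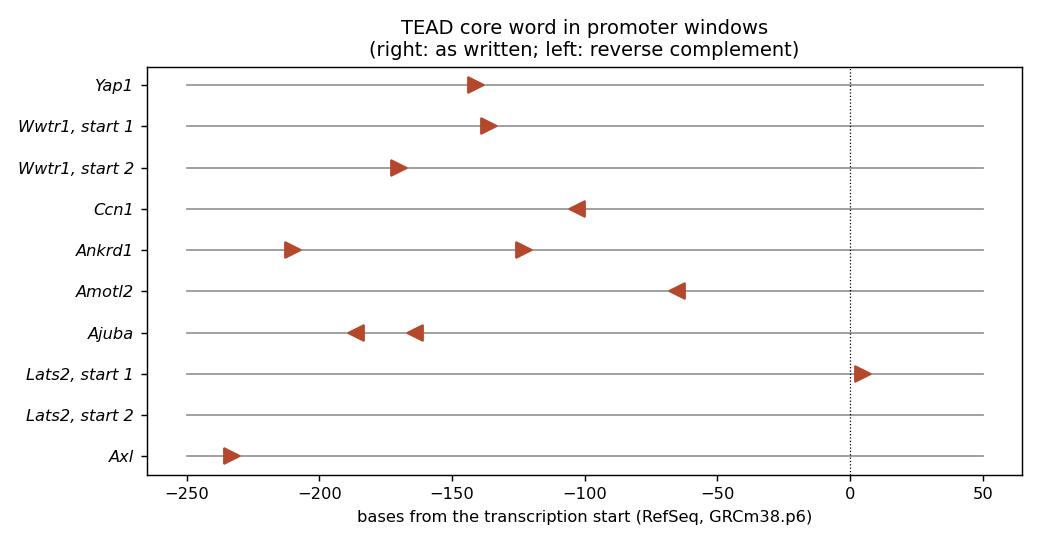
Position of the TEAD core word in the RefSeq promoter windows of 8 member genes, in bases from the transcription start (x axis); each line is 1 window, and triangles point right where the word reads as written and left where it is the reverse complement. The words of Yap1, Wwtr1, Ccn1, Ankrd1, Amotl2, Ajuba and Axl lie upstream of the start, and that of Lats2 just after it.

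Expression was deposited as FPKM (fragments scaled by transcript length and library total), whose length scaling allows levels of different genes to be compared. Library sums were 306735 to 309381 FPKM at 100 nM and 306716 to 308830 FPKM at 0 nM. The 8 epithelial markers summed to 763 to 821 FPKM at 100 nM and 731 to 732 FPKM at 0 nM, with Krt8 and Krt18 (keratins of simple epithelia) highest. By the limma rule set out below, 3 of these 8 rose, the E-cadherin gene Cdh1 (66.2 FPKM at 100 nM and 54.1 FPKM at 0 nM, as means) and the keratin genes Krt7 (37.8 FPKM at 100 nM and 30.2 FPKM at 0 nM) and Krt19 (45.1 FPKM at 100 nM and 37.9 FPKM at 0 nM). Of all tested genes, 1.69% rose by that rule. Of the 8, 5 were higher at 100 nM without overlap, beside 13.7% of all tested genes. Cldn4 (15.1 FPKM at 100 nM and 15.3 FPKM at 0 nM) and Cldn7 (1.34 FPKM at 100 nM and 1.52 FPKM at 0 nM) had lower means. The part of these markers in the members' values was not tested. The 12 leukocyte markers summed to 30.6, 31.9 and 125 FPKM in replicates 1, 2 and 3 at 100 nM, while the 0 nM libraries held 34.0 to 43.0 FPKM. Most of each sum came from Cd14 and Cd68. Cd14 was at 12.65, 8.41 and 65.16 FPKM at 100 nM and 13.01 to 24.14 FPKM at 0 nM. Cd68 was at 15.52, 19.82 and 31.13 FPKM at 100 nM and 16.76 to 18.60 FPKM at 0 nM. Gzmb (a cytotoxic granule protease) reached 14.94 FPKM in the 100 nM library of replicate number 3, and no other library held over 0.05 FPKM. Cd3e, Cd3g, Cd8a, Cd2 and Nkg7 were at 0.66 to 2.58 FPKM in that library and at most 0.03 FPKM in any other. Prf1 of the same list was at only 0.15 FPKM there. The 8 fibroblast markers summed to 5.85, 6.46 and 10.3 FPKM in replicates 1, 2 and 3 at 100 nM and 5.48 to 5.70 FPKM at 0 nM. Of these, Dcn and Thy1 were at 2.26 and 1.35 FPKM in replicate 3 at 100 nM and at most 0.05 FPKM in any other library. Pdgfra (3.81 FPKM) and Col3a1 (0.60 FPKM) were also highest in that library. Others of the list were lowest of their group there. Col1a1 was at 1.66, 1.87 and 1.59 FPKM at 100 nM, Col1a2 at 0.79, 0.97 and 0.65 FPKM, and Pdgfrb at 0.11, 0.09 and 0.06 FPKM. Lum was at most 0.04 FPKM in any library. The 5 endothelial markers summed to at most 0.42 FPKM, the value of replicate 3 at 100 nM. Pecam1 made up 0.35 FPKM of that sum, while Cdh5 was at 0.04 FPKM, Tek at 0.03 FPKM and Kdr and Emcn at 0 FPKM there. The 7 muscle markers summed to 5.08 to 5.66 FPKM at 100 nM and 5.01 to 9.83 FPKM at 0 nM. In bulk samples such as these, fewer cells of a type and less RNA per cell cannot be told apart.

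All 10 members were expressed in every library. Averaged over the 6 libraries, FPKM ran from 438 for Ccn1 through 201 for Axl, 66.8 for Ccn2, 41.1 for Ajuba, 40.0 for Wwtr1, 36.8 for Ankrd1, 26.1 for Amotl2, 19.2 for Yap1 and 13.2 for Tead1 to 8.92 for Lats2. The ranges of Ajuba and Wwtr1 overlapped, as did those of Wwtr1 and Ankrd1; every other pair of neighbours in this order was separate in its range over the 6 libraries. TAZ transcripts were above YAP transcripts in each library, at 37.93 to 42.58 FPKM for Wwtr1 and 18.42 to 20.28 FPKM for Yap1.

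Cells at 100 nM PFOS had less Ccn1 transcript, the only one of the 10 members that passed the test, while Ccn2, its closest relative among the members, had a higher mean that did not pass. The difference was tested with limma on log2(FPKM + 1), 100 nM minus 0 nM, over the 11741 genes that averaged at least 1 FPKM, and calls were made where the adjusted p (Benjamini-Hochberg) was under 0.05. By that rule 1 of 10 members fell and 0 rose, where 4.15% of all tested genes were called (2.46% lower and 1.69% higher), so 1 call in 10 genes is close to that background. At an unadjusted p under 0.05 by limma, 6 of 10 members passed, beside 20.7% of all tested genes. The mean was lower at 100 nM for 7 members and higher for 3, with a median difference of -0.06, against 0.01 over all tested genes. Groups were separate for 7 of 10 members, 5 lower and 2 higher at 100 nM, where 26.9% of all tested genes did not overlap (13.3% lower and 13.7% higher).

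**Figure D2:**
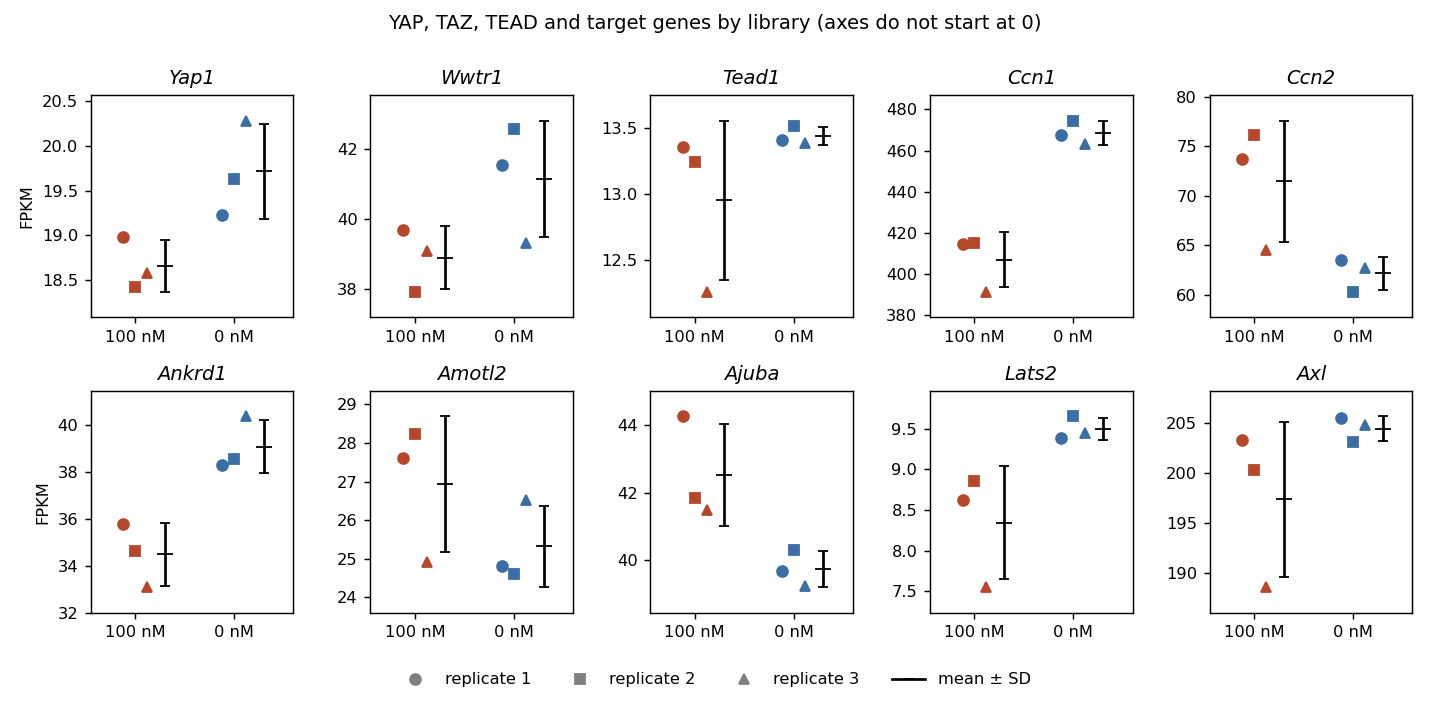
FPKM of the 10 members in each library (y axis, not starting at 0), with the 3 libraries at 100 nM PFOS to the left of the 3 at 0 nM in each panel, symbols for replicate numbers, and the mean ± SD beside them. Ccn1, Ankrd1, Lats2, Yap1 and Tead1 lie below the 0 nM values in every 100 nM library, Ccn2 and Ajuba lie above them, and the other 3 overlap.

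**Figure D3:**
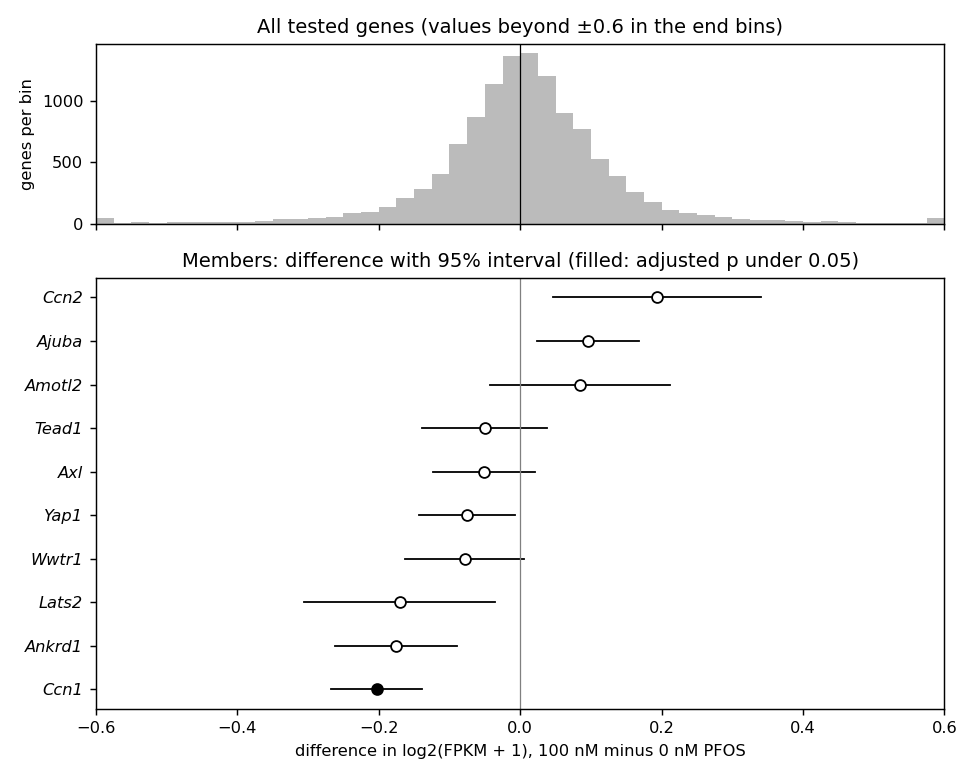
Difference in log2(FPKM + 1), 100 nM minus 0 nM (x axis), for the 11741 tested genes as a histogram (top) and for the 10 members with their 95% intervals from limma (bottom; filled where the adjusted p was under 0.05). The members range from -0.20 for Ccn1 to 0.19 for Ccn2, and only Ccn1 is filled.

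The coactivators and their TEAD partner were slightly lower on average. Yap1 (chromosome 9, 7931999 to 8004596) was at 18.98, 18.42 and 18.58 FPKM at 100 nM and 19.23, 19.63 and 20.28 FPKM at 0 nM. Every 100 nM library was below every 0 nM library. The difference of -0.08 ± 0.03 (SE) on the log2(FPKM + 1) scale did not pass (limma adjusted p = 0.205), and its 95% interval was -0.14 to -0.01. Wwtr1 (chromosome 3, 57455649 to 57575910) was at 39.70, 37.93 and 39.08 FPKM at 100 nM and 41.56, 42.58 and 39.32 FPKM at 0 nM. The groups overlapped, since replicate 1 at 100 nM was above replicate 3 at 0 nM. Its difference was -0.08 (95% interval -0.16 to 0.01; limma adjusted p = 0.266). Tead1 (chromosome 7, 112679318 to 112906807), one of the mammalian TEAD factors, was at 13.36, 13.24 and 12.26 FPKM at 100 nM and 13.41, 13.52 and 13.39 FPKM at 0 nM. Replicates 1 and 2 at 100 nM lay just below the 0 nM values, and replicate 3 lay further down. Its difference of -0.05 (95% interval -0.14 to 0.04; limma adjusted p = 0.498) was -0.01 without that library.

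Of the secreted targets, Ccn1 fell, and Ccn2 had a higher mean that did not pass. Ccn1 encodes CYR61, a matricellular protein that binds integrins and heparan sulfate. The gene (ENSMUSG00000028195, chromosome 3, 145646976 to 145649981) was at 414.45, 415.08 and 391.61 FPKM at 100 nM and 467.58, 474.48 and 463.30 FPKM at 0 nM. All 3 values at 100 nM were below all 3 at 0 nM. Means were 407 ± 13.4 FPKM at 100 nM and 468 ± 5.64 FPKM at 0 nM (SD, n = 3 each), a ratio of 0.869, and on the log2(FPKM + 1) scale they differed by -0.20 ± 0.03 (SE; limma adjusted p = 0.0148). The call was lost when any one 0 nM library was left out (limma adjusted p = 0.0669, 0.0726 and 0.0582 without replicates 1, 2 and 3), while the difference stayed at -0.20, -0.19 and -0.21. Without replicate 3 at 100 nM it was -0.18 (limma adjusted p = 0.0144), and over all 18 alternatives the adjusted p lay between 0.00815 and 0.0726.

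Ccn2 encodes CTGF, a CCN protein of the same domain plan that is made during matrix deposition and fibrosis. The gene (ENSMUSG00000019997, chromosome 10, 24595442 to 24598683) was at 73.72, 76.12 and 64.48 FPKM at 100 nM and 63.50, 60.31 and 62.73 FPKM at 0 nM. All 100 nM values were above all 0 nM values, but replicate 3 at 100 nM was only just above replicate 1 at 0 nM. Means were 71.4 ± 6.15 FPKM at 100 nM and 62.2 ± 1.66 FPKM at 0 nM (SD, n = 3 each), a ratio of 1.15. The difference of 0.19 ± 0.06 (SE; 95% interval 0.05 to 0.34) on the log2(FPKM + 1) scale did not pass (limma adjusted p = 0.140). Without replicate 3 at 100 nM it was 0.27 and passed (limma adjusted p = 0.0187), and over all 18 alternatives the adjusted p lay between 0.0187 and 0.313. In the GENCODE transcripts, 19.7% of the 31-base words of Ccn2 are shared with other genes, among them Gm15270 on the other strand, which was at 0.09 to 0.12 FPKM in these libraries. Set side by side, Ccn1 had 5.62, 5.45 and 6.07 times the FPKM of Ccn2 in the 100 nM libraries and 7.36, 7.87 and 7.39 times in the 0 nM libraries. This ratio was formed after both genes had been seen and was not tested.

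Ankrd1 encodes CARP, an ankyrin repeat protein of the sarcomere and nucleus that is induced in stretched muscle and is also a standard YAP and TAZ readout in epithelial cells. It (ENSMUSG00000024803, chromosome 19, 36111961 to 36119910) was at 35.77, 34.63 and 33.09 FPKM at 100 nM and 38.31, 38.55 and 40.38 FPKM at 0 nM. The groups did not overlap, and means were 34.5 ± 1.35 FPKM at 100 nM and 39.1 ± 1.13 FPKM at 0 nM (SD, n = 3 each), a ratio of 0.883. The difference of -0.18 ± 0.04 (SE; 95% interval -0.26 to -0.09) on the log2(FPKM + 1) scale lay on the edge of the threshold and did not pass (limma adjusted p = 0.0505). It passed in 5 of 18 alternatives, with adjusted p between 0.0345 and 0.161 over all of them. Of the 7 muscle markers, only the troponin gene Tnnt2 averaged over 1 FPKM across the 6 libraries, at 4.87 to 5.33 FPKM at 100 nM and 4.58 to 4.74 FPKM at 0 nM. The actin gene Acta1 was at 0 to 0.22 FPKM at 100 nM and 0.23 to 0.44 FPKM at 0 nM, and Actc1 was listed at 0 in every 100 nM library and at 0.04, 4.35 and 0 FPKM at 0 nM. Des, Tnnt3, Myh3 and Ryr2 were at most 0.27 FPKM in any library. The part of these in the value of Ankrd1 was not tested.

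The feedback genes did not share a direction. Lats2 encodes one of the kinases that phosphorylate YAP and TAZ, and is itself raised by them. It (chromosome 14, 57689662 to 57746123) was at 8.62, 8.86 and 7.55 FPKM at 100 nM and 9.38, 9.65 and 9.45 FPKM at 0 nM. The groups did not overlap, and replicate 3 at 100 nM was lowest. The difference was -0.17 ± 0.06 (SE; limma adjusted p = 0.155), and -0.11 without that replicate (limma adjusted p = 0.165). Of the 31-base words of Lats2, 41.8% are shared with transcripts of other genes. Among these is Gm49361, which overlaps Lats2 on the same strand and was not analysed here, so the level of Lats2 is uncertain. The pseudogene Gm20430 overlaps Lats2 on the other strand and was at 1.91, 2.43 and 1.23 FPKM at 100 nM. At 0 nM Gm20430 was at 2.00, 2.06 and 2.92 FPKM. The part of Gm20430 in the value of Lats2 was not tested.

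Amotl2 encodes an angiomotin, a junction protein that binds YAP and holds it outside the nucleus. It (chromosome 9, 102716672 to 102733418) was at 27.62, 28.24 and 24.92 FPKM at 100 nM and 24.82, 24.60 and 26.53 FPKM at 0 nM. Replicates 1 and 2 at 100 nM were above every 0 nM library, and replicate 3 was among them. The difference was 0.08 (95% interval -0.04 to 0.21; limma adjusted p = 0.427), and 0.14 without replicate 3 at 100 nM (limma adjusted p = 0.148). Ajuba encodes a LIM protein of adherens junctions that binds and inhibits LATS kinases. It (chromosome 14, 54567472 to 54577558) was at 44.27, 41.85 and 41.48 FPKM at 100 nM and 39.67, 40.28 and 39.21 FPKM at 0 nM. Every 100 nM library was above every 0 nM library, but the difference of 0.10 ± 0.03 (SE; 95% interval 0.02 to 0.17) did not pass (limma adjusted p = 0.139).

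Axl, a receptor tyrosine kinase of the TAM family that is linked to invasion and drug resistance in carcinoma cells, was the second most abundant member. It (chromosome 7, 25757273 to 25788705) was at 203.31, 200.30 and 188.60 FPKM at 100 nM and 205.50, 203.12 and 204.81 FPKM at 0 nM. The groups overlapped, and replicate 3 at 100 nM was the lowest of the 6 libraries. The difference was -0.05 (95% interval -0.12 to 0.02; limma adjusted p = 0.395), and -0.02 without that replicate (limma adjusted p = 0.622).

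Replicate 3 was the lowest 100 nM library for 8 of the 10 members, all but Yap1 and Wwtr1, where this held for 38.6% of all tested genes. It was also the lowest of its group for 8 of 8 epithelial markers and for 10 of 11 tested genes of a YAP and TAZ target signature described below, but for 1 of 5 further targets, 2 of 4 other TEAD and Vgll genes and 0 of 5 leukocyte markers. The Hippo kinase list had 12 of 18, and the junctional list and the CCN and TAM relatives 3 of 4 each. Replicate 3 at 100 nM is also the library with the leukocyte sum of 125 FPKM and the highest fibroblast and endothelial sums (10.3 and 0.42 FPKM). Not every fibroblast or endothelial marker was highest there, as given above. The part of those transcripts in the members' values was not tested. Without it, the direction of each of the 10 members stayed as with it, and Ccn2 joined Ccn1 among the called genes.

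The surroundings of Ccn1 on chromosome 3 moved with it. Of 16 protein-coding genes that averaged 2 FPKM or more and whose lower coordinates lie within 2.5 Mb of that of Ccn1, 16 had a lower mean at 100 nM and 11 fell by the limma rule, where 267 of 9214 such genes in the genome did. Their median difference was -0.46, lower than the -0.20 of Ccn1. Hs2st1, a heparan sulfate sulfotransferase, averaged 28.9 FPKM at 100 nM and 40.4 FPKM at 0 nM, and Gng5, a G protein gamma subunit, averaged 21.8 FPKM at 100 nM and 33.9 FPKM at 0 nM. Of the 16, 11 had a lower difference than Ccn1 and 5 a higher one. The nearest on each side by that measure did not pass: Znhit6, a snoRNP assembly factor, averaged 11.8 FPKM at 100 nM and 12.1 FPKM at 0 nM (difference -0.04), and Ddah1, an enzyme that breaks down asymmetric dimethylarginine, averaged 55.0 FPKM at 100 nM and 57.4 FPKM at 0 nM (difference -0.06). The part of this stretch in the value of Ccn1 was not tested.

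**Figure D4:**
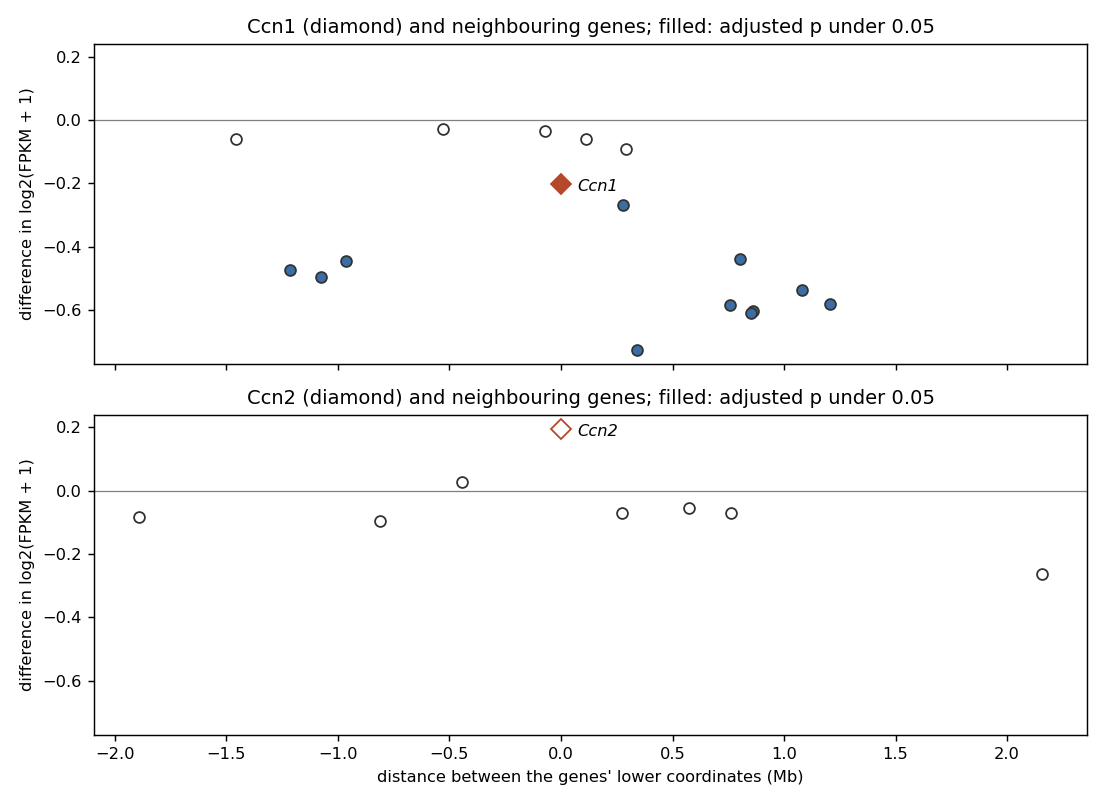
Difference in log2(FPKM + 1), 100 nM minus 0 nM (y axis), of protein-coding genes within 2.5 Mb of Ccn1 (top) and Ccn2 (bottom), against the distance between the genes' lower coordinates in Mb (x axis); the diamond is the member, and filled symbols have a limma adjusted p under 0.05. All 16 neighbours of Ccn1 are below 0 and 11 are filled, whereas Ccn2 stands at 0.19 above its 7 neighbours, none of which is filled.

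The surroundings of the other members held fewer calls. Within the same distance, 0 of 7 neighbours of Ccn2 passed the limma test and 6 had a lower mean, with a median difference of -0.07 beside the 0.19 of Ccn2 itself. Ankrd1 had 17 neighbours, with 8 higher and 9 lower means, a median of -0.04 and 0 calls by limma. For Yap1, Tead1 and Amotl2, 0 of 8, 0 of 14 and 0 of 14 neighbours were called, and for Wwtr1 1 of 10, which was higher. Of the 9214 protein-coding genes averaging 2 FPKM or more in the genome, 173 were called higher and 267 lower. Ajuba, Lats2 and Axl had 3 of 52, 2 of 40 and 2 of 49 called, all lower. The windows of Ajuba and Lats2 on chromosome 14 overlap and share many genes. Both called neighbours of Lats2, Pspc1 and Pck2, are also among those of Ajuba.

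The rest of the pathway was read from lists chosen by function. Of 18 Hippo kinases and their scaffolds, all tested, 0 passed the limma test, and the median difference was -0.01. At an unadjusted p under 0.05 by limma, where 20.7% of all tested genes passed, 1 of these 18 did. Mob1a, the LATS cofactor and the most abundant of them, averaged 41.7 ± 0.677 FPKM at 100 nM and 42.0 ± 0.833 FPKM at 0 nM (SD, n = 3 each). Of 6 other TEAD factors and Vgll cofactors, 4 were tested and 0 passed (1 at an unadjusted p under 0.05 by limma), with a median of -0.02. Tead2 averaged 14.5 FPKM at 100 nM and 14.6 FPKM at 0 nM, and Tead4 averaged 12.1 FPKM at 100 nM and 12.5 FPKM at 0 nM. These levels place Tead1, Tead2 and Tead4 close together, while Tead3 was at 1.43 to 2.12 FPKM at 100 nM and 1.35 to 1.63 FPKM at 0 nM.

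Among 7 junctional and LIM regulators, 4 were tested and 1 rose, where 1.69% of all tested genes rose. At an unadjusted p under 0.05 by limma, 2 of these 4 passed, beside 20.7% of all tested genes. The gene that rose was Amotl1, an angiomotin like Amotl2. It was at 22.53, 22.67 and 21.93 FPKM at 100 nM and 20.10, 19.98 and 20.38 FPKM at 0 nM. Its groups did not overlap, and the difference was 0.14 ± 0.02 (SE; limma adjusted p = 0.0315), and the call did not survive 8 of 18 alternatives, which included leaving out replicate 1 or 2 at 100 nM (limma adjusted p = 0.0977 and 0.108) and leaving out replicate 1, 2 or 3 at 0 nM (limma adjusted p = 0.105, 0.114 and 0.0859). Amotl1 has 16 neighbours within 2.5 Mb on chromosome 9, of which 13 had a higher mean and 2 were called higher. Of the 9214 such genes in the genome, 4774 had a higher mean and 173 were called higher. Fat1, a giant protocadherin upstream of Hippo signalling and the most abundant gene of the list by mean, averaged 21.7 FPKM at 100 nM and 21.4 FPKM at 0 nM.

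Targets outside the members were read from a pan-cancer YAP and TAZ signature, of which 16 genes are not members. Of these, 11 were tested and 0 passed the limma test, with 3 higher and 8 lower means and a median difference of -0.06. At an unadjusted p under 0.05 by limma, where 20.7% of all tested genes passed, 3 of these 11 did. Asap1, an Arf GTPase-activating protein, was the most abundant and averaged 53.1 ± 1.95 FPKM at 100 nM and 50.6 ± 0.270 FPKM at 0 nM (SD, n = 3 each). Of 7 further targets, 5 were tested, 0 rose and 1 fell, where 2.46% of all tested genes fell. At an unadjusted p under 0.05 by limma, 1 of these 5 passed. Birc5, which encodes the mitotic protein survivin and was the most abundant of these, averaged 37.6 ± 0.486 FPKM at 100 nM and 39.0 ± 1.04 FPKM at 0 nM (SD, n = 3 each), a difference of -0.05 that did not pass (limma adjusted p = 0.327). The gene that fell was Areg, which encodes amphiregulin, an EGF receptor ligand. It was at 12.72, 11.73 and 12.10 FPKM at 100 nM and 16.61, 17.43 and 17.55 FPKM at 0 nM. The groups were far apart, at a ratio of 0.709, and the difference was -0.47 ± 0.04 (SE; limma adjusted p = 0.00323), with the call lost in 2 of 18 alternatives, one of them without replicate 3 of both groups (adjusted p = 0.0510). Areg has 28 neighbours within 2.5 Mb on chromosome 5, of which 14 had a lower mean and 2, Cxcl1 and Cxcl5, were called lower. Of the 9214 such genes in the genome, 4440 had a lower mean and 267 were called lower.

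The strongest difference in these lists was that of a CCN relative. Ccn4, which encodes the WNT-inducible matricellular protein WISP1, was at 6.80, 6.67 and 6.63 FPKM at 100 nM and 3.88, 4.38 and 4.43 FPKM at 0 nM. The 3 libraries at 100 nM were close together and all above those at 0 nM, at a ratio of 1.58 and a difference of 0.56 ± 0.05 (SE; limma adjusted p = 0.00404). It stayed called in all 18 alternatives, with a limma adjusted p of at most 0.0496. Within 2.5 Mb on chromosome 15, Ccn4 has 5 neighbours, of which 4 had a higher mean and 1, Ndrg1, was called higher. In the genome, 4774 of 9214 such genes had a higher mean and 173 were called higher. Ccn4 was the only one of 7 CCN and TAM relatives to pass, with 4 tested, where 4.15% of all tested genes were called. At an unadjusted p under 0.05 by limma, 3 of these 4 passed, beside 20.7% of all tested genes. The Axl relative Tyro3, the most abundant of that list, averaged 5.32 ± 0.0929 FPKM at 100 nM and 5.84 ± 0.252 FPKM at 0 nM (SD, n = 3 each), a difference of -0.11 that did not pass (limma adjusted p = 0.167).

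**Figure D5:**
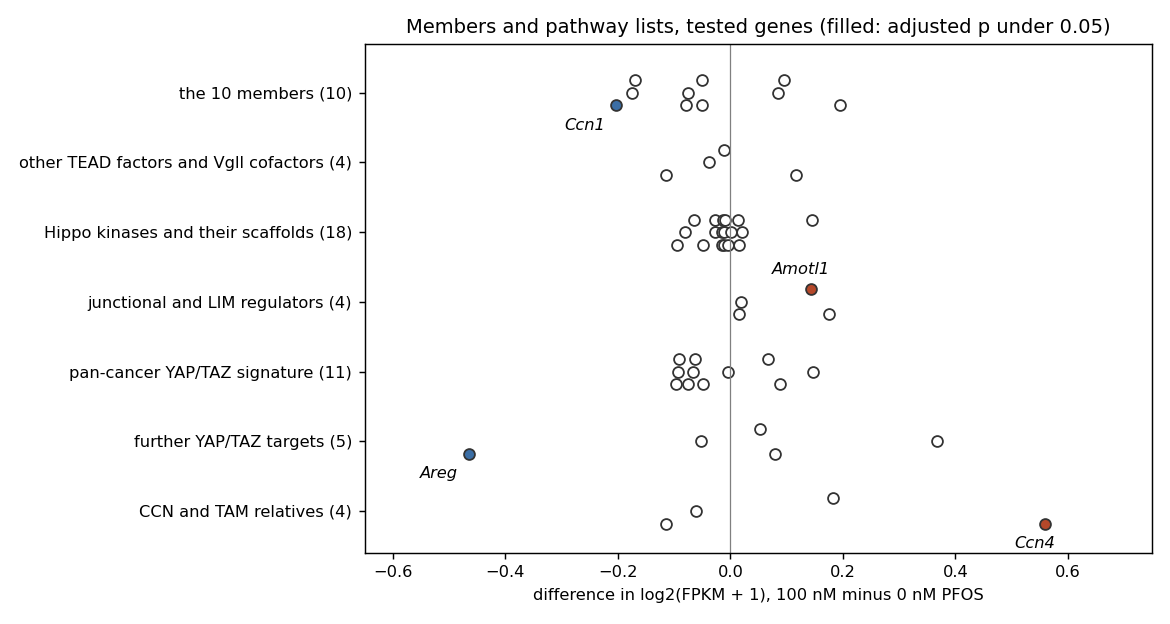
Difference in log2(FPKM + 1), 100 nM minus 0 nM (x axis), of each tested gene in the members and the 6 pathway lists (rows, with the number tested), filled where the limma adjusted p was under 0.05. Ccn1 and Areg are filled below 0 and Amotl1 and Ccn4 above it, and the 18 Hippo kinases and scaffolds are all unfilled.

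Over the 6 libraries, the protein-coding genes of at least 5 FPKM (6806 searched) whose log2 values followed Ccn1 most closely were Plau, Prelid1 and Mki67, with Pearson r of 0.997, 0.996 and 0.995. Plau, the urokinase gene, was at 88.65, 88.80 and 78.37 FPKM at 100 nM and 121.41, 121.71 and 120.05 FPKM at 0 nM, with replicate 3 at 100 nM lowest as for Ccn1. Those closest to Ccn2 were Ctnnb1, Als2cl and Nedd4, with r of 0.997, 0.992 and 0.990, all on chromosome 9. Ctnnb1, which encodes beta-catenin, was at 159.53, 160.89 and 153.54 FPKM at 100 nM and 151.92, 150.24 and 151.44 FPKM at 0 nM. With 6 libraries and 6806 genes, such values describe a ranking only.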

How the data were processed

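Poly(A) RNA of 4T1 cells was sequenced in 6 libraries, 3 per group, as read pairs from strand-marked libraries, per the labels' protocols. The deposited values are FPKM per gene, written by the authors to 2 decimals; fastp, HISAT2 and StringTie are named, with the builds GRCh38 and mm10, per the submitters' processing notes. The sources used here give no versions, no role for GRCh38 and no strand setting. Of 28418 identifiers, 28350 are in GENCODE M21 (GRCm38) and 25640 have its coordinates, so positions are GRCm38. Depth is unknown: of 15111 low values, 22.2% lay within 0.1 of a whole multiple of the gene's smallest value, where even spread gives 20%, so reads were not recovered.

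The test was limma-trend (limma 3.58.1, R 4.3.3) on log2(FPKM + 1), two-sided, for genes averaging 1 FPKM or more over the 6 libraries; such differences understate the change of low genes. It was tested on simulated data. Groups come from the treatment label. Members and lists were chosen with earlier results of these data known. One further target is not reported here. Named are the members, called genes of each pathway list and its most abundant gene, and the 3 genes most like Ccn1 and Ccn2. Shared words were counted over all GENCODE M21 transcripts. Promoters are RefSeq's, searched on both strands; protein sequences were not used. The 18 alternatives covered pseudocounts, filters, scalings, moderation, the replicate block, gene type and leaving out libraries. Tables and figures were made with Python 3.11.15 and matplotlib 3.10.9.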

Additional observations from a re-analysis of the deposited data

How the results depend on the processing

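In the 18 alternatives run, no member changed direction, and Yap1, Wwtr1, Tead1, Amotl2, Ajuba, Lats2 and Axl stayed uncalled. Ccn1 lost its call with no filter on low values (-0.20, adjusted p = 0.0647) and with the replicate block (-0.20, adjusted p = 0.0624), with differences of -0.22 to -0.18 when libraries were left out. Ankrd1 passed with a filter of 5 FPKM (-0.18), median ratio scaling (-0.18), quantile normalization (-0.17), robust moderation (-0.18) and protein-coding genes only (-0.18), with -0.20 to -0.12 when libraries were left out. Ccn2 ran from 0.15 to 0.27 over left-out libraries. So 2 members were called in the 5 alternatives that called Ankrd1 and without replicate 3 at 100 nM, and 0 with no filter or with the block; leaving out libraries gave 0 to 2. The 487 calls over all genes became 204 with no filter, 294 with no mean-variance trend, 58 with the replicate block, 122 to 290 with 1 library left out and 91 without replicate 3 of both groups. Calls in the Hippo kinase list were 1 with the 5 FPKM filter or protein-coding genes only; in the junctional list 0 with no trend or the block and 0 to 1 with libraries left out; among the further targets 0 with the block or without replicate 3 of both groups and 1 with any 1 library left out. With the block, Amotl1 and Areg lost their calls. The block pairs libraries that share only a number: deviations of same-numbered libraries from their group means correlated at -0.033, -0.053 and 0.0065 across genes. Where a call was lost the cause was not tested. Depth is unknown, so the precision of single values rests on 3 libraries per group.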
